A study of Homo sapiens with 2 samples.

Results

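The 5S ribosomal RNA genes of the human genome lie in a tandem array on the long arm of chromosome 1, in band 1q42. A list of peaks of RNA recovered with HA-precipitated GATA2 held 17 peaks in this array, of 2692 peaks in all. The members were chosen by position: a peak belonged to the array when its midpoint lay between 228740000 and 228790000 of chromosome 1. Positions are on hg19, counted from 1. Because the region was chosen with the peak list known, the number, the crowding, the scores and the lengths of its peaks are given as a description and were not tested.

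The peaks came from 1 HA immunoprecipitate of K562 cells carrying a GATA2 transgene, and the study also had 1 input library, which was not analysed here. K562 is a chronic myelogenous leukaemia cell line, and GATA2 is a DNA-binding protein with GATA-type zinc fingers that is needed by early blood progenitors. The cells of both libraries had been exposed to 1 µg/mL doxycycline (5 hours) and to 100 µM 4-thiouridine (24 hours), a nucleoside that crosslinks to protein under ultraviolet light, and were then irradiated at 365 nm with 0.3 J/cm2. The sources used here do not give the promoter of the transgene or the number of clones, and the list offers no marker levels by which the cell type could be checked. The assay was a form of CLIP named seCLIP by the submitters: fragments of RNA that stay crosslinked to the precipitated protein after RNase digestion are sequenced.

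5S rRNA is a small RNA of the large ribosomal subunit and is transcribed by RNA polymerase III, apart from the other rRNAs, which RNA polymerase I makes as one precursor in the nucleolus. Its promoter lies inside the gene and is recognised by TFIIIA, a zinc finger protein that binds both the 5S gene and the 5S RNA. Free 5S rRNA is carried with the ribosomal proteins RPL5 and RPL11, a particle also known for binding MDM2, the ubiquitin ligase of p53. The genes are repeated head to tail, each with its own spacer. They are very abundant sources of RNA in growing cells.

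A RefSeq gene table of another build, GRCh38.p14, was used for names and gene order only. It lists 17 genes named RNA5S1 to RNA5S17, all on chromosome 1. RNA5S1, RNA5S2, RNA5S3, RNA5S4, RNA5S5, RNA5S6, RNA5S7, RNA5S8 and RNA5S9 are each listed with a length of 121 bp, as are RNA5S10 to RNA5S17. They follow one another in order, with the gene RHOU and the pseudogene DUSP5P1 listed between RNA5S16 and RNA5S17. The entry just before RNA5S1 is the pseudogene RNA5SP19, the entry just after RNA5S17 is the pseudogene RNA5SP18, and the nearest protein-coding gene before the array is RNF187, a ubiquitin ligase gene. The number of peaks equalled the number of listed genes, but this does not pair peaks with genes. RNA5S17 stands apart from the others in this order, the builds differ and no peak was assigned to a gene. The peaks are therefore called copies 1 to 17, in order of position.

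The array carried a row of 17 high-scoring peaks, most of them narrow. The score is the authors' value for each peak, on a scale the file does not state. The 17 copies had scores between 137.33 and 215.93 and a median of 197.77, against a range of 50 to 735.93 and a median of 65.64 over the 2675 other peaks of the list. Peak lengths ran from 393 to 943 bp with a median of 398 bp in the array, against 314 to 12489 bp and a median of 852 bp elsewhere. The median length was thus 2.14 times shorter in the array. No ratio of scores is given, since the zero of their scale is not stated.

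By score, the 17 copies ranked from 49 to 183 in the list. All 17 scored above 100, as did 16.0% of the whole list. A score above 150 was reached by 15 copies and by 5.24% of the list. These 15 were 10.6% of the 141 peaks of the list above 150, while the 17 copies were 0.632% of all peaks. On chromosome 1, 15 of the 27 peaks above 150 lay in the array.

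Of the 17 peaks, 11 had nearly the same length, from 393 to 401 bp, and the highest scores of the array, from 195.63 to 215.93. The highest score belonged to copy 10, a peak of 394 bp from 228765866 to 228766259. The next was copy 12, from 228770347 to 228770747, with a score of 209.39 over 401 bp. Copies 10 and 12 lay inside the array, not at its ends. Copies 15, 16 and 17 closed the array, from 228777044 to 228777437, from 228779283 to 228779677 and from 228781516 to 228781908, with scores of 207.67, 199.87 and 206.4.

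The remaining 6 copies of this narrow kind scored between 195.63 and 205.56. Copy 4, from 228752467 to 228752862, scored 196.53, and copy 5, from 228754708 to 228755105, scored 198.33. Copy 7, from 228759143 to 228759535, scored 197.77, and copy 8, from 228761385 to 228761785, scored 205.56. Copy 9, from 228763624 to 228764018, had 195.63, the lowest of the 11. Copy 11, from 228768107 to 228768504, had the same score as copy 5, 198.33, and the same length, 398 bp. The mean score of the 11 was 203 ± 6.52 (SD over copies, n = 11), a spread between positions of 1 library and not between replicates.

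The 6 other copies were longer and scored lower. Copy 6, from 228756923 to 228757364, measured 442 bp and scored 190.11. Copies 2, 13 and 14 measured 543, 543 and 542 bp. Copy 2, from 228747983 to 228748525, scored 177.1, copy 13, from 228772570 to 228773112, scored 161.78, and copy 14, from 228774812 to 228775353, scored 157.14. Copies 1 and 3 were the longest, with 940 bp from 228745202 to 228746141 and 943 bp from 228749684 to 228750626, and had the lowest scores of the array, 147.19 and 137.33. The score ranges of the 11 narrow copies, of copy 6, of the 3 copies of 542 or 543 bp and of the 2 copies of 940 or 943 bp did not overlap, and fell in the order of length.

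**Figure D1:**
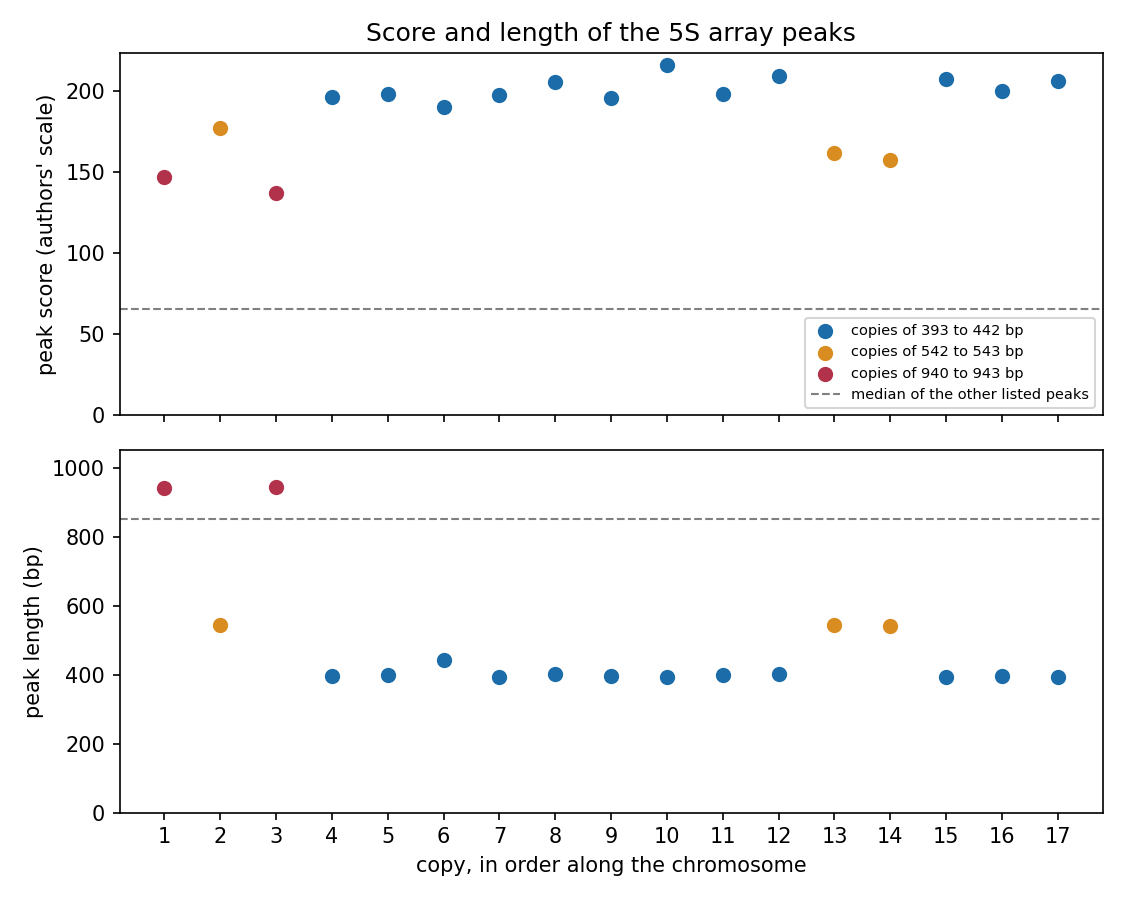
Score (top, authors' scale) and length in bp (bottom) of the 17 peaks of the 5S array, in order along the chromosome, coloured by length; the dashed lines are the medians of the 2675 other listed peaks, 65.64 and 852 bp. Every copy scores above the line, and copies 1, 2, 3, 13 and 14 are both the longest and the lowest-scoring.

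Across the 17 copies, score and length were inversely related (Pearson's r -0.89, Spearman's rho -0.73). The points share 1 library and neighbouring, similar sequence, so these values describe the copies only. The 2675 other peaks showed hardly any such relation, with a Pearson's r of 0.11 and a Spearman's rho of -0.0021. Among the 166 other peaks that scored at least as high as the lowest copy, the values were 0.09 and -0.02. Within the 12 copies of up to 450 bp the relation was weaker, with a Pearson's r of -0.49 and a Spearman's rho of -0.25. These 12 include copy 6, the longest and lowest-scoring of them at 442 bp and 190.11. The 11 others spanned only 393 to 401 bp, and no value was computed for them alone. The values for the 12 thus do not show an inverse relation among the 11. The inverse relation was thus less marked without the 5 longest peaks. Whether the inverse relation of the array differs from the rest of the list was not tested.

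**Figure D2:**
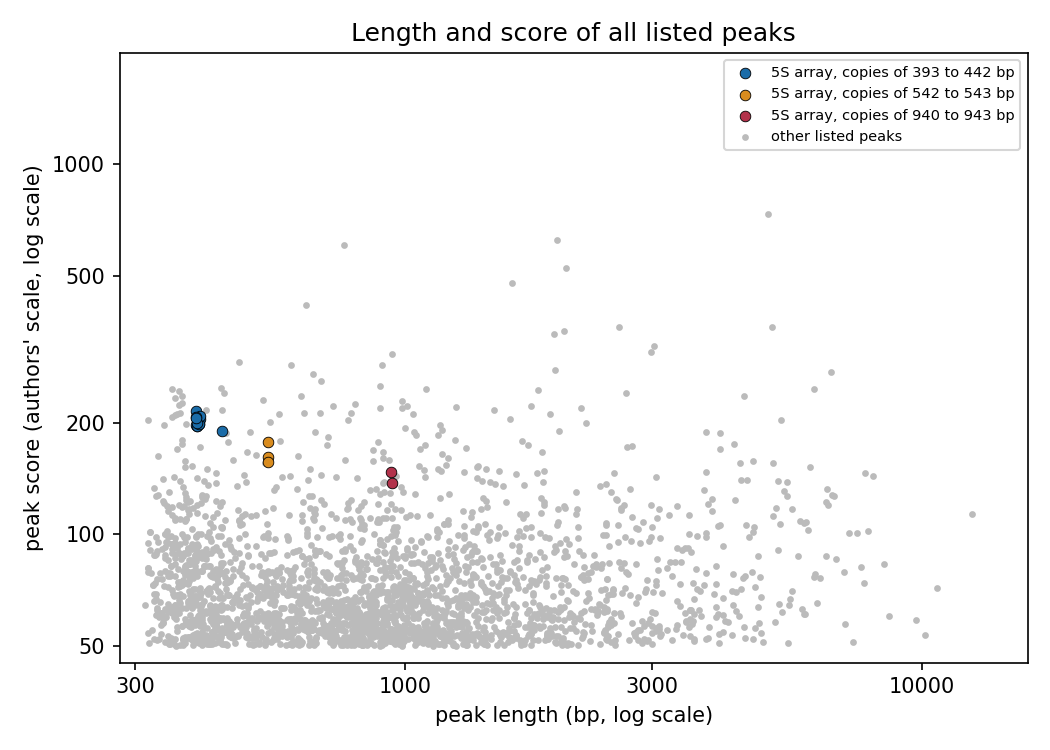
Length in bp and score (authors' scale) of all listed peaks, on log axes; coloured points are the 17 array peaks and grey points the 2675 others. The array peaks lie in a descending line of 3 groups, from 393 to 442 bp at scores of 190.11 to 215.93 down to 940 and 943 bp at 147.19 and 137.33.

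The peaks were spaced at close to the known repeat length. The 5S repeat unit is known to measure about 2.2 kb, and the median distance between successive midpoints was 2241.5 bp over 16 intervals. A least-squares line through the midpoints gave a period of 2245 bp. From copy 4 to copy 17 the distance from one start to the next was close to constant, from 2215 to 2242 bp with a mean of 2235 ± 9.38 bp (SD over 13 intervals). Of these 13 intervals, 8 measured 2239 to 2242 bp and 5 were shorter. The shortest were 2215 bp between copies 5 and 6, 2220 bp between copies 6 and 7 and 2223 bp between copies 12 and 13.

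Distances between ends varied more than distances between starts in this stretch, from 2084 to 2365 bp (SD 61.2 bp). The lowest and the highest value lay at copies 13 and 14, the longer peaks. At the beginning of the array the starts were irregular instead, with distances of 2781, 1701 and 2783 bp between copies 1, 2, 3 and 4. The distance from the start of copy 2 to the start of copy 4 was 4484 bp, or 2242 bp per copy, and the ends of copies 1 and 3 lay 4485 bp apart. Over these 2 spans the repeat length was close to that of the rest of the array, but their edges were chosen after seeing the positions. Each span covers 2 steps and does not measure the step between adjacent copies. Between ends, the successive distances from copy 1 to copy 4 were 2384, 2101 and 2236 bp.

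**Figure D3:**
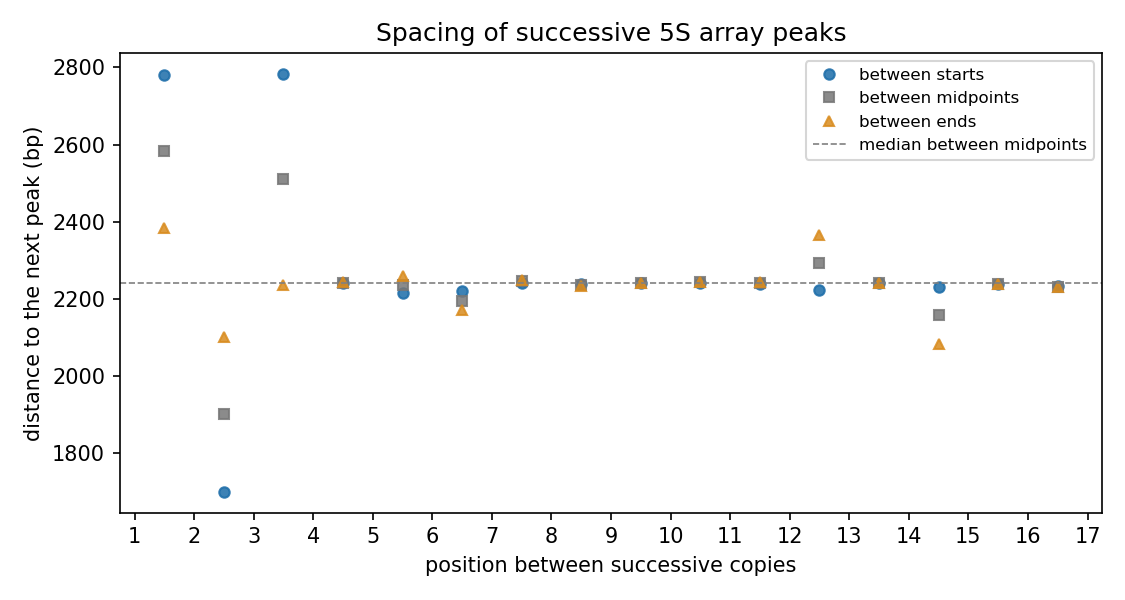
Distance in bp from each array peak to the next, measured between starts, midpoints and ends, in order along the chromosome, with the median between midpoints of 2241.5 bp dashed. The distances stay near that line except next to copies 1 to 3 and next to copies 13 and 14.

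Aligned on the repeat, the peaks differed at one edge or the other. A line fitted to the starts by the Theil-Sen method, which takes the median of all pairwise slopes, had a period of 2236.5 bp. The starts of 15 copies had offsets from -11.5 to 26.5 bp from the fitted start of their copy. The starts of copies 1 and 3 lay far before it, with offsets of -533.5 and -524.5 bp, while their ends were in place, with offsets of -8.3 and 5.8 bp from a line fitted to the ends. Copies 2, 13 and 14 began in place and ended 140.2, 137.1 and 142.6 bp beyond the fitted end. The ends of the other 14 copies had offsets from -27.1 to 37.3 bp, the largest at copy 6. The added lengths thus came in recurring sizes, with 3 peaks lengthened to nearly the same extent at their right edge and 2 peaks at their left edge, in copies that were not all neighbours.

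**Figure D4:**
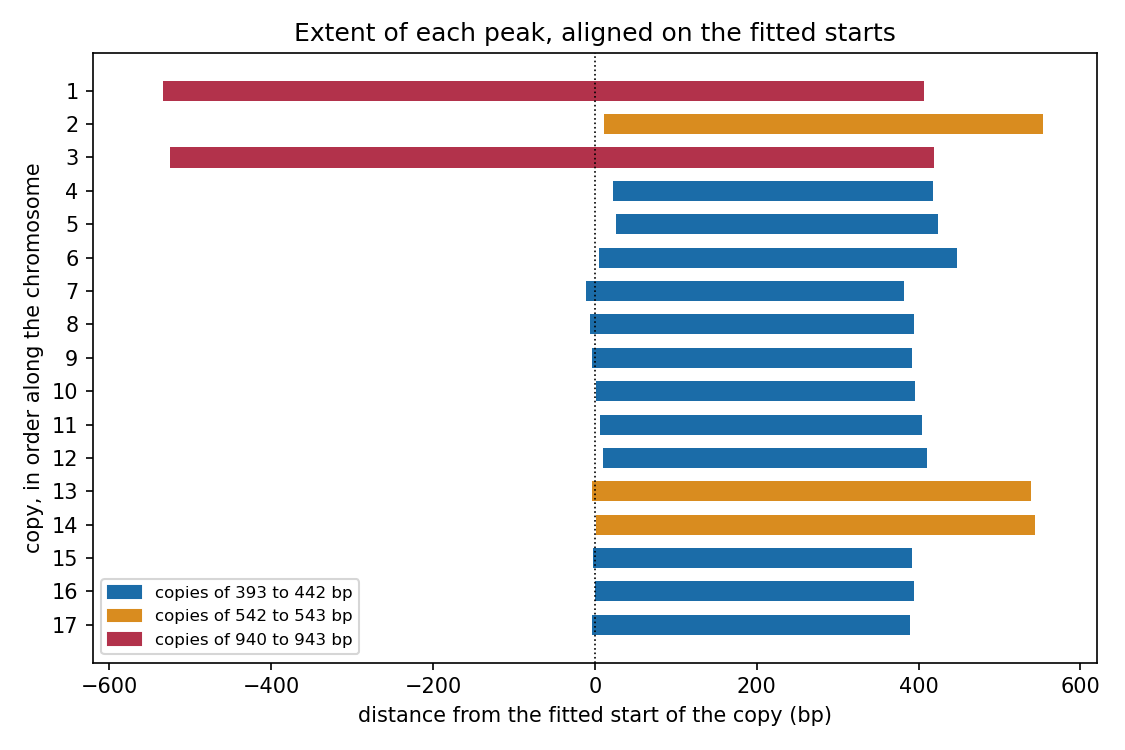
Extent of each of the 17 peaks, as bars running from start to end in bp from the start fitted for its copy (dotted line at 0), copies in order from the top. Bars of up to 450 bp nearly share both edges, copies 2, 13 and 14 run on at the right and copies 1 and 3 begin far to the left.

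The row of peaks had no gap the size of a missing copy, since successive midpoints lay at most 2582.5 bp apart. Of the 17 fitted sites, 0 lacked a peak midpoint within 10% of the period. The sites were fitted to these same 17 peaks and not to gene positions. Whether a 5S gene of the array lacks a peak was therefore not tested. Peaks covered 8311 bp, or 22.6%, of the 36707 bp from the first to the last member, and the median peak took up 17.7% of a repeat unit. The stretches between peaks measured 1690 to 1849 bp in 15 of 16 cases and 1158 bp between copies 2 and 3. The median peak was 3.29 times the length listed for a 5S gene, so a peak of this list does not show which bases of the transcript or spacer were recovered. Every copy had another peak midpoint within 3000 bp, as did 8.43% of the whole list.

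The row of peaks ended sharply on both sides. The first peak began 5202 bp inside the region and the last ended 8092 bp before its end, and the 10 kb on each side of the region held 0 peaks each. When the repeat was continued for 10 kb beyond the first and the last midpoint, 4 sites before and 4 sites after had no peak. Whether hg19 holds a 5S copy at those sites was not examined. The nearest peak before the array, from 228644910 to 228645549, lay 99.7 kb away and scored 71.92. The nearest after it, from 228823177 to 228823668, lay 41.3 kb away and scored 56.12. Both scores are below the lowest copy, 137.33.

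The opposite edges of the array were unlike. Copies 1 to 3 had scores of 147.19, 177.1 and 137.33 and lengths of 940, 543 and 943 bp. Copies 15 to 17 had scores of 207.67, 199.87 and 206.4 and lengths of 394, 395 and 393 bp. The 11 copies between them scored 157.14 to 215.93 with a median of 197.77. The last 3 copies lay within the range of the inner ones, whereas 2 of the first 3 were below it. Lower scores were not confined to that edge, since copies 13 and 14 scored 161.78 and 157.14.

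How even the scores of the array were beside those of other runs of consecutive listed peaks depended on the measure of spread. Over all 17 copies the coefficient of variation, the SD as a share of the mean, was 12.5%. In the 2285 other runs of 17 consecutive peaks of a chromosome it ran from 13.5% to 154% with a median of 37.8%. These runs overlap one another. They were formed without a limit on the distance between peaks, whereas the copies stood at most 1849 bp apart. Measured as the SD of the log2 score, the spread was 0.19 in the array and 0.18 to 0.94 in the other runs, 4 of which were below the array. Both measures depend on the unstated zero of the score.

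Peaks as narrow and as high as those of the array also occurred elsewhere. Length and score both fell within the ranges of the 17 copies in 41 of the 2675 other peaks (1.53%), on 20 chromosomes. A length of at most 450 bp together with a score of at least 190 was found in the 12 shorter copies by construction, since the limits were set to their values. It was found in 1.08% of the whole list, these 12 included, and in 0.636% of the 2675 other peaks. The 5 peaks closest to the array's median length and score were spread over 5 chromosomes. The closest, on chromosome 2 between 175422425 and 175422800, scored 198.25. Chromosomes 6 and 3 held the next, between 165823051 and 165823404 with a score of 207.37, and between 134502070 and 134502410 with a score of 197.2. The last pair were found on chromosome 14 between 107092675 and 107093032, with a score of 210.24, and on chromosome 1 between 120543638 and 120544087, with a score of 187.43. Each stood alone, at least 147.5 kb from the next peak, whereas the 17 copies stood at most 1849 bp apart.

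The list bounds what can be said of an RNA polymerase III transcript in this assay. It shows that the authors' caller listed 17 peaks in the array, spaced at close to the repeat length. It gives no input values, so recovery with GATA2 cannot be told apart from the abundance of 5S rRNA in the lysate. It gives no strand, so 5S rRNA cannot be told apart from RNA of the opposite strand or of the spacer. The sources used here do not say how reads that match several copies were placed, so 17 peaks cannot be read as 17 transcribed or 17 bound copies. Likewise, whether the longer peaks of copies 1, 2, 3, 13 and 14 differ in sequence from the others was not tested. With 1 library there was no replicate check, and the read depth behind each score is unknown.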

How the data were processed

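The deposited file was the peak list of 1 HA immunoprecipitate, with chromosome, start, end, name and score. The submitters' processing notes name the build hg19 and the tools Bowtie2, bedtools, cutadapt, SAMtools and UMI-tools 1.0.0, without saying what each did. Peak names begin with MACS, a peak caller, whose version, threshold and control the sources used here do not give. The score was deposited by the authors on an unstated scale and was used only within the list. The other deposited values were positions in bp, written here counted from 1. Samples were grouped by their titles.

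The members and lists were chosen with earlier results of these data known. Named are every array peak, the nearest peak on each side and the 5 peaks nearest to the array's medians in log2 length and log2 score, each scaled by its SD over the list. The lines were checked on 20 simulated arrays of 17 copies with 2 empty copies, of which 20 were recovered. Midpoints scattered far less about the period in the simulated arrays than in the 5S array. The check thus covers the method on even arrays and not the fit to these peaks. No position was converted to another build. The planned comparison of 5S gene sequences and motifs was not run. No test was made, since 1 library allows none. Values were computed in Python 3.11.15 with pandas 2.3.3, numpy 2.4.6 and scipy 1.17.1, and drawn with matplotlib 3.10.9.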

Additional observations from a re-analysis of the deposited data

How the results depend on the processing

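The number of peaks in the array stayed at 17 with any overlap, with 10 kb added on each side, with a score minimum of 100 and as a chain of neighbours within 3000 bp, and was 15 with a score minimum of 150, without copies 1 and 3. The period ran from 2235 to 2245 bp over the medians and the fitted lines, the line through the ends included. The means over all 16 intervals ran wider, with 2252.53 bp between midpoints, 2269.62 bp between starts and 2235.44 bp between ends. Sites without a midpoint nearby numbered 3 with a tolerance of a twentieth of the period, against 0 at 10%, a change that follows from the narrower margin, and 2 with a score minimum of 150, which removes 2 peaks by construction. With any overlapping peak counted, 0 sites were empty. The median score ran from 188 (as a mean) to 199.1 and the length from 395.5 to 489 bp (as a mean). The coefficient of variation was 16.99% with the lowest score of the list subtracted and 8.57% over the 14 evenly spaced copies. Both were below every other run of as many peaks, but neither comparison was on equal terms. Subtracting the lowest score, 50, raises the coefficient most in runs near it, and the other peaks had a median of 65.64. The 14 copies were picked by their spacing, which left out copies 1 and 3, the lowest-scoring, whereas the other runs were not picked. The SD of the log2 score, 0.19, was above 4 other runs, so the order depends on the measure. The outer 6 copies differed from the inner 11 by -9.29 in median score, and the first and last copy from the inner 15 by -21.0. Both values pool unlike ends, since the median was 147.19 in the first 3 copies and 206.4 in the last 3, against 197.77 in the inner 11. The line through the starts, the chain, the edges used for copies 1 to 3 and the values for copies of up to 450 bp were chosen after seeing the data. The read depth is unknown, which limits all of these values. No paired analysis was possible because the input has no values here.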

Other observations

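From copy 4 to copy 17, successive starts lay 2215 to 2242 bp apart, a range that by construction holds 13 of the 16 array pairs. Among the 2652 other pairs of successive peaks of a chromosome, 2 had starts this far apart. One lay on chromosome 16, with starts at 28722787 and 28725013, a distance of 2226 bp and scores of 142.52 and 117.25. Its peaks measured 577 and 2147 bp, unlike the array's. The other lay on chromosome 8, with starts 2239 bp apart, lengths of 413 and 376 bp and scores of 150.38 and 123.53.

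The gene table of GRCh38.p14 lists 510 5S pseudogenes named RNA5SP on 24 chromosomes, 51 of them on chromosome 1. Whether any peak outside the array lies at one of them was not tested, since no annotation of hg19 was used.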
